A study of Mus musculus with 8 samples.

Results

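Heat shock proteins and DnaJ proteins are molecular chaperones. HSP70 proteins bind unfolded stretches of other proteins in cycles of ATP hydrolysis, DnaJ proteins (also called HSP40) deliver clients and stimulate that hydrolysis, and HSP110 proteins exchange the nucleotide. HSP90 acts on clients at a later stage of folding, the HSPD1/HSPE1 chaperonin encloses proteins in the mitochondrial matrix, and the small HSPs hold unfolding proteins without using ATP. Many of the cytosolic members are targets of the transcription factor HSF1, whereas those of the endoplasmic reticulum (ER) are induced by the unfolded protein response.

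The members were the 122 array probes whose gene name began with Hspa, Hspb, Hsp90, Hspd, Hspe, Hsph or Dnaj followed by a digit or a, b or c, out of 41174 probes with a value. They belonged to 62 genes: 9 of the HSP70 family, 2 of the HSP110 family, 3 of HSP90, 2 of the mitochondrial chaperonin, 7 small HSPs, Hspbap1 (whose protein associates with small HSPs), and 4, 13 and 21 DnaJ genes of types A, B and C. Hsph1 carries an older name in the files (Hsp110), so it was not a member and is given separately. Hspa1b has no probe under its own name, and some Hspa1a probes also list the Hspa1b transcript, so these near-identical genes could not be separated.

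One-colour Agilent arrays measured total RNA of 4 samples labelled Colon Adenoma with genotype Tcf4Het ApcHet and of 4 labelled Normal Colon with genotype TCF4WT ApcHet, all from C57BL/6 mice. Tcf4 is an older name of Tcf7l2, which encodes a transcription factor of the Wnt pathway. Both groups were ApcHet (the protocol calls the allele ApcMin), and the adenomas came from mice that were also heterozygous for Tcf4, so tumor state and Tcf4 genotype cannot be told apart. The tissue was the distal 2.5 cm of the colon of littermates, given as independent samples, and the titles call it adult with no age in weeks. In bulk tissue of this kind, fewer cells of a type and less RNA per cell cannot be told apart.

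Values are log2 levels from the deposited table, in which every column had the same median of 8.51 and the same 75th percentile of 11.40. A gene was represented by its brightest probe among those at or above a detection limit of 5.59 on at least 4 of the 8 arrays, which left 21637 genes, 59 of them chaperones. Differences are tumor minus normal with their standard error (SE, n = 4 per group), and a change was called at a limma p-value below 0.05 after Benjamini-Hochberg adjustment over all 21637 genes. The scanner files and the value columns disagreed on sample identity. Of the 8 columns, 4 could be traced to a scanner file, 3 of these to a file under another sample's label. The columns of normals 1 and 2 matched files labelled normal 2 and normal 3, and that of tumor 2 a file labelled normal 4. Each column is used here under its own label. The column of normal 3 stood apart most, with correlations of 0.947 to 0.966 with the tumors and of 0.872 to 0.941 with the other normals. Normal 1 was also no closer to the normals (0.938 to 0.941) than to the tumors (0.925 to 0.956). Only normals 2 and 4 correlated closely with each other (0.987), so the normals were not a uniform group. The main counts and the called members are given with and without normal 3. The replicate numbers shared by the groups were also fitted as a block.

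Of the 59 tested chaperone genes, 10 rose in the tumors and 2 fell. Over all genes tested, 7.0% rose, 7.54% fell and 14.5% changed in either direction. The 10 that rose were Hspb1, Dnaja1, Dnaja4, Hspe1, Hspd1, Hsp90ab1, Hspa2, Hspbap1, Dnajc18 and Dnajc6, by 1.52-fold (Hsp90ab1) to 6.5-fold (Dnajc6), and the 2 that fell were Dnajc5 and Dnajc13. The median difference over the 59 genes was 0.31, beside 0.15 over all genes tested, and 44 of the 59 differences (74.6%) were positive, beside 57.9% of all genes. With each array centred on its own median over the tested genes, which left a median of 0.019 over all genes, 7 members rose and 3 fell, beside 4.96% and 9.32% of all genes, and 38 of the 59 differences (64.4%) were positive, beside 51.0% of all genes.

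The calls depended on the fit and on single libraries. With the replicate number as a block, 3 members rose (Hspb1, Dnaja1 and Dnajc18) and 1 fell (Dnajc13), against 3.61% and 5.08% of all genes. Without normal 3, 19 members rose and 5 fell, against 31.7% and 19.8% of all genes, and all 12 genes called with it were called again in the same direction. With the block and without normal 3 together, an alternative chosen after seeing the data, 16 rose and 2 fell, against 24.7% and 13.5% of all genes. Fitted probe by probe, 10 member probes rose and 5 fell, against 5.62% and 7.83% of all kept probes. In that fit Hspd1 and Hsp90ab1 each had 0 of 2 probes called. Hspa2, Hspb1, Dnaja1, Dnaja4, Dnajc18 and Dnajc5 had called and uncalled probes together. Leaving out any other library lowered the counts of members and of all genes together. Without tumor 4, 6 members rose and 1 fell, and 8.61% of all genes were called. Without tumor 2, 2 rose and 0 fell, and 1.75% of all genes were called. In each of the fits without tumor 1, normal 1, normal 2 or normal 4, 1 rose and 0 fell, and 3.95%, 2.57%, 2.87% and 0.739% of all genes were called. Without tumor 3, limma called 0 members and 21 of all genes (0.0971%), and 17 members had an unadjusted p under 0.05. Hspb1 was called in 7 of these 8 fits, and each of the other 11 genes in 1 to 3. In all 12 genes the 4 tumors lay on 1 side of the 4 normals. The genes were called on these same values, and the share of separated genes among all called genes was not computed. Such separation fixes the sign of the difference within each of the 4 pairs of equal replicate number. The signs within pairs and within the slides below are therefore no further support. The traced columns place tumor 1 and normal 1 on 1 slide and tumor 2 and normal 2 on another. These slides are those of the matched files, and the file matched to tumor 2 is labelled normal 4. Within the first slide the 10 higher genes differed by 0.55 to 3.87 and the 2 lower genes by -1.02 to -0.68. Within the second slide the corresponding differences were 0.83 to 3.58 and -1.41 to -0.51.

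**Figure D1:**
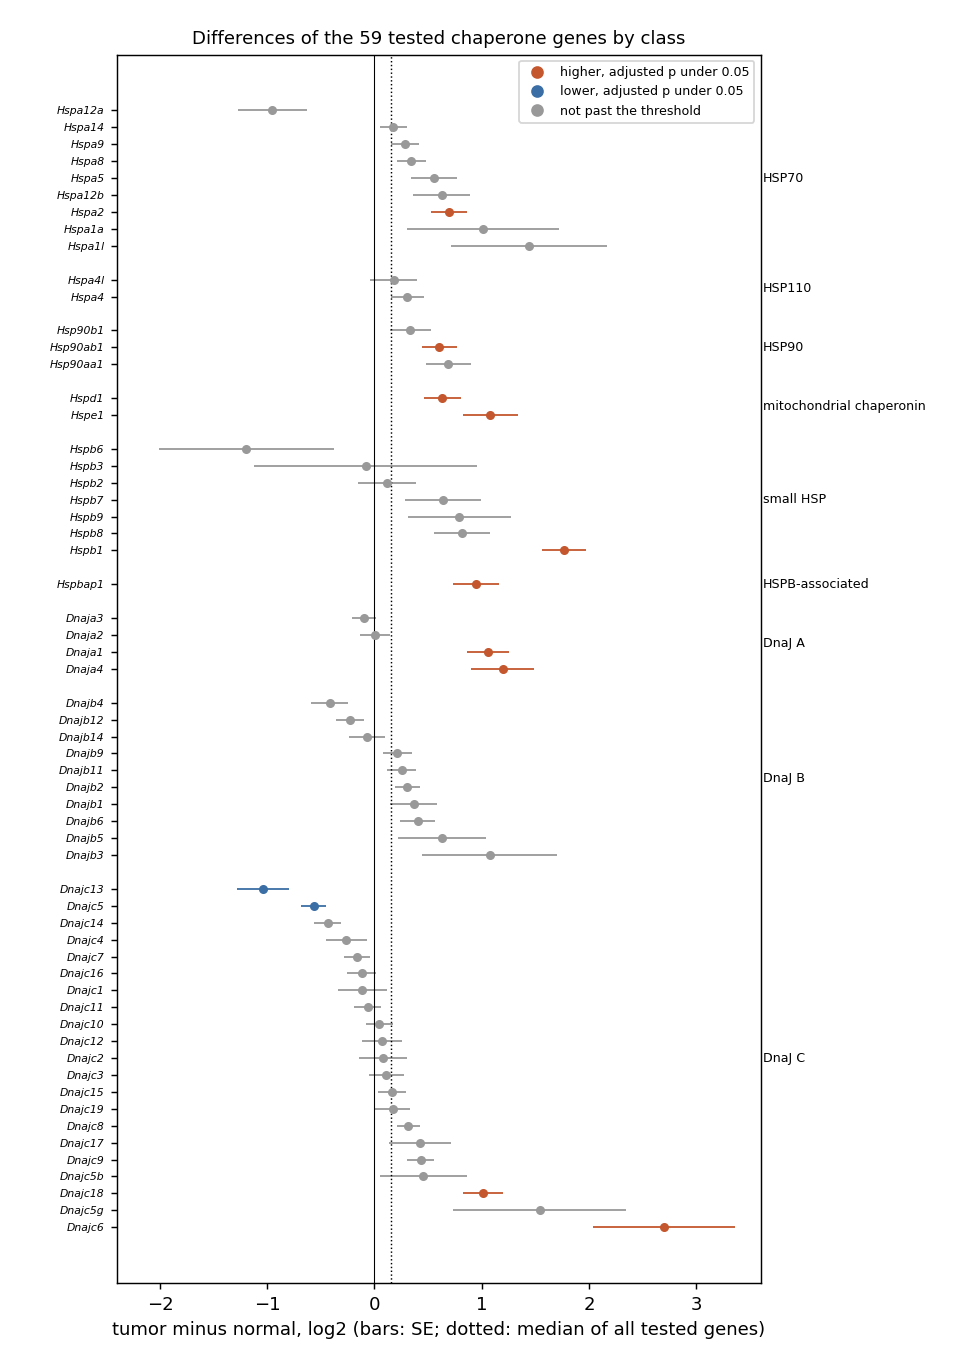
Tumor minus normal difference (log2, x axis) of each of the 59 tested chaperone genes, grouped by class, with bars for the SE (n = 4 per group) and a dotted line at the median of all genes tested, 0.15. Orange points mark the 10 genes that rose and blue points the 2 that fell; both mitochondrial chaperonin genes are orange, and no DnaJ B gene is coloured.

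Promoter sequences are shown for 5 genes whose class is known to answer heat shock or ER stress, because their windows hold the letters of the corresponding element. The windows run from 250 bases before to 50 after the annotated start (300 bases, RefSeq, GRCm38.p6), and 51 of the 62 genes had at least 1. In Hspe1, capitals mark the heat shock element, 3 units in the order GAA, TTC, GAA or TTC, GAA, TTC, with any 2 bases between units. In Hspb1 and Dnaja1 they mark its short form, GAANNTTC or TTCNNGAA, where N is any base; the short form lies inside the long one. In Hspa5 and Hsp90b1 they mark the ER stress element, CCAAT, any 9 bases and CCACG, or its reverse complement CGTGG, any 9 bases and ATTGG. Both strands were searched. Each sequence runs 5′ to 3′ on the strand of its gene: Hspe1 at chr1:55087898-55088197 (+), Hspb1 at chr5:135887669-135887968 (+), Dnaja1 at chr4:40722218-40722517 (+), Hspa5 at chr2:34771840-34772139 (+) and Hsp90b1 at chr10:86705395-86705694 (-).
Hspe1: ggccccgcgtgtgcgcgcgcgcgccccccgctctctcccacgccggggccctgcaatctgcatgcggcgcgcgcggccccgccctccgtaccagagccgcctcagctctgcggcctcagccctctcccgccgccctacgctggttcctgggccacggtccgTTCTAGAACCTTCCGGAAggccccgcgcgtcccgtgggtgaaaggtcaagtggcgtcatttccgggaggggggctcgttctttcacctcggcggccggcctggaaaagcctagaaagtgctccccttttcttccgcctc
Hspb1: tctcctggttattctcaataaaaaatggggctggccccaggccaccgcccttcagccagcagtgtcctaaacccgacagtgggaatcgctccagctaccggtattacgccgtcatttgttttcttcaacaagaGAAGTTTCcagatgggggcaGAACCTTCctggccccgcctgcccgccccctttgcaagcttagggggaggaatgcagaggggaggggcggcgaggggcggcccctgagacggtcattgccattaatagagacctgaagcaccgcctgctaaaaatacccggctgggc
Dnaja1: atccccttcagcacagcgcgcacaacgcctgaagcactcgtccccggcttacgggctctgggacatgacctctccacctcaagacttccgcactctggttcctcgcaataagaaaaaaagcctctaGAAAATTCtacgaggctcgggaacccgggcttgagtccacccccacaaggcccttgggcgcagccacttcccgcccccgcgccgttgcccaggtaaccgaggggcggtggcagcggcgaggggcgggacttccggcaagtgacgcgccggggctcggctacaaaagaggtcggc
Hspa5: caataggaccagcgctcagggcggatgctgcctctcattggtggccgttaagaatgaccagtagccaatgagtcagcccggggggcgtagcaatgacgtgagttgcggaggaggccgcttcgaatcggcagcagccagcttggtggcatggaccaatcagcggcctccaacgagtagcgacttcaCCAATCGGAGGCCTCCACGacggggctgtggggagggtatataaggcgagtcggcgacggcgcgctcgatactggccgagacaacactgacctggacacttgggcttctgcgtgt
Hsp90b1: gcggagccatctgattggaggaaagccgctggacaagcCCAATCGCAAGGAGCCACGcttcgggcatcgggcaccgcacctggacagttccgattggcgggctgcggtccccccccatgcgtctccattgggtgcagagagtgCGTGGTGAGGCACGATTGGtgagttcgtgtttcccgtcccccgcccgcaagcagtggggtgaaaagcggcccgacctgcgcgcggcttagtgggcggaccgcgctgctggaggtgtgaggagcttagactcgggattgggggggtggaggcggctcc

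The long heat shock element was present in the windows of 3 member genes (Dnajb6, Hspd1 and Hspe1), which is 5.88% of the 51 with a window, beside 0.662% of 27025 genes and 0.603% of 32851 promoters. Hspd1 and Hspe1 lie head to head and their windows overlap, so they share the same letters. The short form was found for 13 of 51 members (25.5%), beside 17.0% of all genes. A gene counted when any of its windows matched. By promoter it was found in 14 of 67 member windows, beside 15.1% of all promoters. For Dnaja1, which has several windows, only the printed window held the short form. Of the 13 member genes with it, 5 rose (Dnaja1, Dnaja4, Hspb1, Hspd1 and Hspe1, the last 2 with overlapping windows). Among all 59 tested members 10 rose, and among all genes 7.0%. A link between the element and the rise was not tested. The ER stress element was found for 3 members (Dnajc3, Hsp90b1 and Hspa5), none of which passed, and in 0.119% of all promoters. A match is a description of the letters in the window and no evidence of binding.

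Among the cytosolic HSP70 genes, the stress-inducible Hspa1a varied widely between samples. Its levels were 11.69, 12.78, 11.05 and 12.90 in normals 1 to 4 and 11.995, 15.02, 12.81 and 12.65 in tumors 1 to 4. Tumor 2 was above every other sample and the remaining tumors lay within the range of the normals. The difference of 1.02 ± 0.71 (SE) had an adjusted p of 0.297 and was 0.67 without normal 3 (adjusted p = 0.460).

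Hspa8, the constitutive HSC70, read 18.14, 18.11, 18.05 and 18.26 in the normals and 18.35, 18.70, 18.58 and 18.31 in the tumors. The groups did not overlap, by a narrow margin, and the difference of 0.35 ± 0.14 did not pass (adjusted p = 0.131). Hspa2, best known for its role in spermatogenesis, was the HSP70 gene that rose: 10.68, 10.90, 11.22 and 10.87 in the normals against 11.55, 11.78, 11.76 and 11.37 in the tumors. All tumors were above all normals, with normal 3 nearest to them. The difference was 0.70 ± 0.17, 1.62-fold (limma adjusted p = 0.0352), and 0.80 without normal 3 (0.0098). It was lost with the block (adjusted p = 0.0528) and after centring (0.0538).

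Hspa5, the ER HSP70 known as BiP, read 16.36, 16.72, 16.11 and 16.65 in the normals and 16.64, 17.38, 17.11 and 16.91 in the tumors. Only tumor 1 fell inside the range of the normals, and the difference of 0.55 ± 0.21 did not pass (adjusted p = 0.119). Hspa9, the mitochondrial HSP70, differed by 0.29 ± 0.13 with no overlap between groups (adjusted p = 0.168). Of the remaining HSP70 genes, Hspa1l, expressed mainly in testis, had the largest difference that did not pass, 1.44 ± 0.73 (adjusted p = 0.197). Without normal 3 it was 2.10 and called (limma adjusted p = 0.0165). Hspa12a was the 1 family member with a negative value, -0.95 ± 0.32 (adjusted p = 0.0869), and was called without normal 3 (-1.21, limma adjusted p = 0.0125). For HSP70 as a whole, 1 of 9 genes rose and 8 did not pass, with a median difference of 0.55.

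The HSP110 genes act as nucleotide exchange factors of HSP70. Neither of the 2 members passed in limma, and 0 had an unadjusted p under 0.05: Hspa4 differed by 0.31 ± 0.15 (adjusted p = 0.194) and Hspa4l by 0.18 ± 0.22 (adjusted p = 0.534). Hsph1, the third gene of this family and no member by its name in the files, read 12.60, 12.91, 12.64 and 13.02 in the normals and 13.71, 15.28, 14.06 and 14.08 in the tumors. Every tumor was above every normal, and tumor 2 was the highest. The difference of 1.49 ± 0.33 passed (limma adjusted p = 0.0295), also with the block (0.0459).

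The cytosolic HSP90 genes are the inducible Hsp90aa1 and the constitutive Hsp90ab1. Hsp90ab1 rose from 16.45, 16.77, 16.67 and 16.56 in the normals to 17.13, 17.60, 17.09 and 17.05 in the tumors. No values overlapped, and tumor 2 again was the highest. The difference was 0.61 ± 0.17, 1.52-fold (limma adjusted p = 0.0486), 0.62 without normal 3 (0.0275), 0.0608 in adjusted p with the block and 0.121 after centring. Hsp90aa1 read 15.75, 16.27, 15.81 and 16.24 in the normals and 16.52, 17.16, 16.52 and 16.62 in the tumors. Its groups did not overlap either, but the difference of 0.69 ± 0.21 did not pass (adjusted p = 0.0665). Hsp90b1, the ER paralogue GRP94, differed by 0.34 ± 0.19 (adjusted p = 0.217), with normals at 16.85, 17.13, 16.52 and 17.16 and tumors at 17.04, 17.50, 17.19 and 17.27. Tumor 1 lay within the range of the normals.

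Both genes of the mitochondrial chaperonin rose. Hspd1 encodes HSP60, the barrel-forming subunit, and its probe lies at chr1:55022530-55022589 of the mm8 build named in the array headers. Its levels were 16.01, 16.10, 16.21 and 16.16 in the normals and 16.56, 17.19, 16.67 and 16.58 in the tumors. The tumors were all higher, tumor 2 by the most. The difference was 0.63 ± 0.17, 1.55-fold (limma adjusted p = 0.0481), and 0.66 without normal 3 (0.0258). It was not called with the block (0.0779) or after centring (0.114).

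Hspe1 encodes HSP10, the lid of the chamber (probe at chr1:55035623-55035682, mm8). It read 15.62, 14.90, 15.94 and 15.02 in the normals and 16.37, 16.70, 16.45 and 16.28 in the tumors. The normals spread more widely than the tumors, with normal 3 the closest to them. The difference of 1.08 ± 0.25, 2.12-fold, passed (limma adjusted p = 0.0332) and grew to 1.27 without normal 3 (0.0064). It was not called with the block (0.0637).

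**Figure D2:**
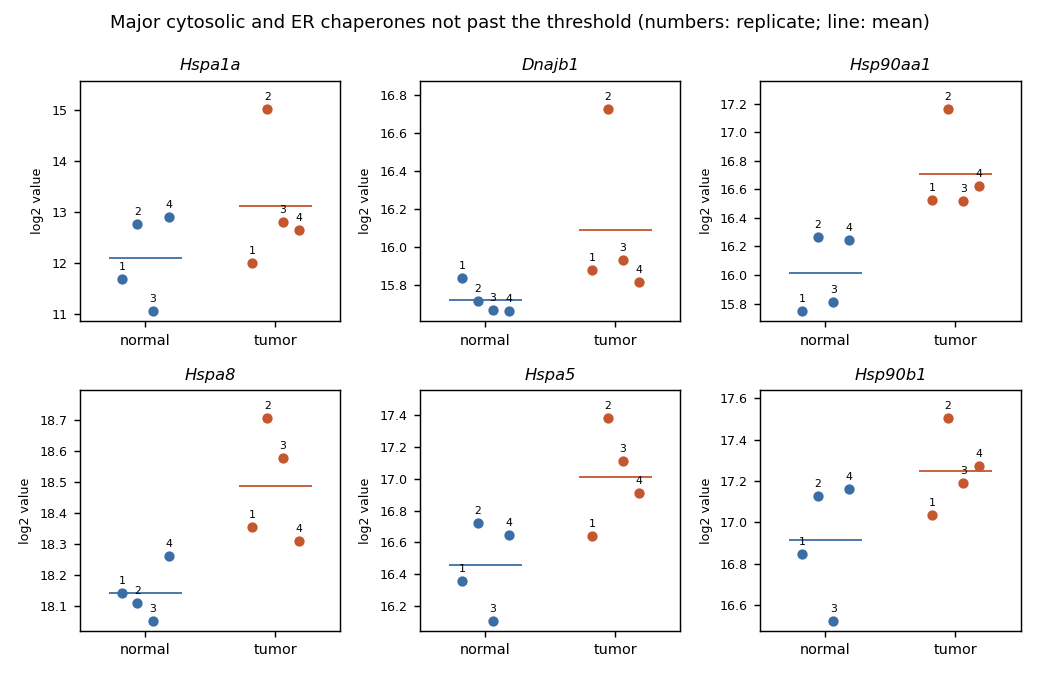
Log2 level (y axis) of 6 major chaperones that did not pass the threshold, 1 point per sample (number: replicate; line: group mean), normals beside tumors. Tumor 2 reached 15.02 for Hspa1a and 16.73 for Dnajb1, above the other tumors.

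The small HSPs held the gene with the smallest adjusted p among the members. Hspb1, which encodes HSP25 (HSP27 in human), read 12.56, 13.23, 12.99 and 13.11 in the normals and 14.36, 15.01, 14.86 and 14.74 in the tumors, with its probe at chr5:136173684-136173871 (mm8). The lowest tumor was above the highest normal by more than the range within either group. The difference was 1.77 ± 0.21, 3.41-fold (limma adjusted p = 0.0123), 1.77 without normal 3 (0.0031), and it remained called with the block (0.0361). The second probe that the files name Hspb1 maps to chromosome 13, and its difference of 1.07 was not called (adjusted p = 0.289 over all probes).

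Hspb8, a partner of the co-chaperone BAG3, differed by 0.82 ± 0.26 (adjusted p = 0.0771), and Hspb7, a muscle-enriched member, by 0.64 ± 0.35 (adjusted p = 0.213). Without normal 3, Hspb7 differed by 0.95 and was called (limma adjusted p = 0.0212). Hspb6, also muscle-enriched, read 6.49, 8.81, 5.48 and 8.84 in the normals and 5.64, 6.12, 5.82 and 7.25 in the tumors, a difference of -1.19 ± 0.82 (adjusted p = 0.289). Normals 2 and 4 were its highest samples, and normal 3 lay under the detection limit of 5.59. For Hspb7 normals 2 and 4 were the lowest samples (7.21 and 7.27) by its brightest probe. By its second probe they were the highest (8.01 and 8.11). As for Hspb6, normals 2 and 4 were the highest for the mean level of 10 smooth muscle markers. That mean ran from 13.20 to 15.38 in the normals and from 13.61 to 14.58 in the tumors. The same held for 7 skeletal muscle markers (7.20 to 14.79 and 7.27 to 12.46). By limma, 0 of these markers were called and 0 had an unadjusted p under 0.05, and their part in the values of Hspb6 was not tested. In all, 1 of 7 small HSPs rose and 6 did not pass, with a median difference of 0.64. Hspbap1 read 11.04, 10.96, 11.34 and 11.06 in the normals and 12.08, 12.35, 12.28 and 11.49 in the tumors. It was higher in all tumors, by 0.95 ± 0.22 or 1.93-fold (limma adjusted p = 0.0306), 1.03 without normal 3 (0.0139) and not called with the block (0.0531).

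Type A DnaJ proteins have the full domain order of bacterial DnaJ. Dnaja1, a cytosolic partner of HSC70, read 14.86, 14.76, 14.88 and 14.75 in the normals and 15.75, 16.41, 15.79 and 15.54 in the tumors. The normals lay close together and the tumors all above them. The difference was 1.06 ± 0.20, 2.08-fold (limma adjusted p = 0.0204), 1.08 without normal 3 (0.0110) and called with the block (0.0475). Its probe spans chr4:40918944-40920399 (mm8).

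Dnaja4, a heat-inducible paralogue, read 10.32, 10.22, 10.83 and 10.31 in the normals and 11.69, 12.26, 11.61 and 10.91 in the tumors. The groups were separated only narrowly, normal 3 against tumor 4. The difference of 1.2 ± 0.29, 2.29-fold, passed (limma adjusted p = 0.0367), rose to 1.33 without normal 3 (0.0148) and was not called with the block (0.0637). Dnaja3, the mitochondrial type A protein, differed by -0.10 ± 0.11 (adjusted p = 0.511) and Dnaja2, another cytosolic partner of HSC70, by 0.002 ± 0.14 (adjusted p = 0.991). Thus 2 of 4 type A genes rose and 2 did not pass.

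**Figure D3:**
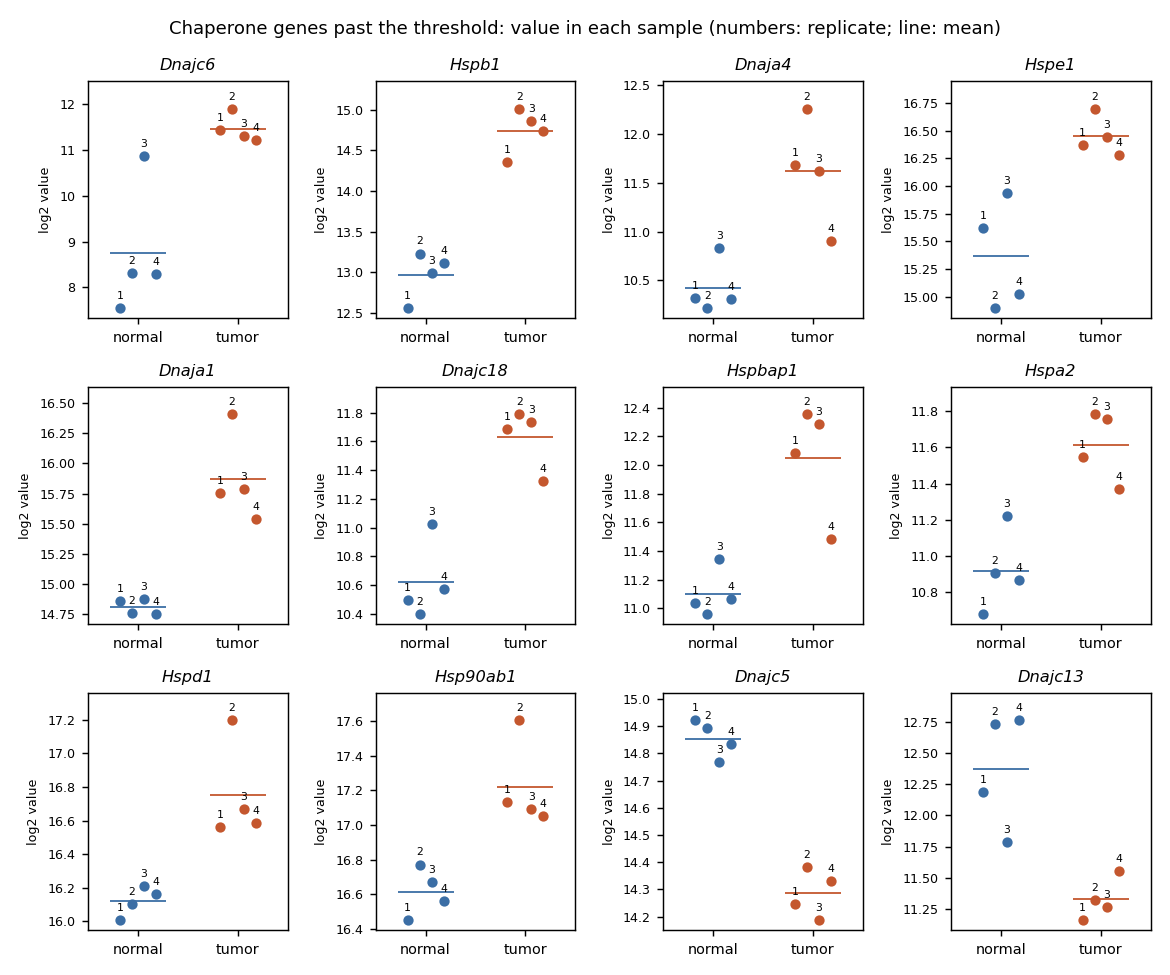
Log2 level (y axis) of the 12 chaperone genes past the threshold, 1 point per sample (number: replicate; line: group mean), normals beside tumors. In each gene the tumors lie on 1 side of the normals; in Dnajc6, normal 3 (10.87) lies apart from normals 1, 2 and 4 (7.55 to 8.32).

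None of the 10 tested type B genes was called by limma, and 3 had an unadjusted p under 0.05. Dnajb1, the main heat-inducible HSP40, read 15.83, 15.71, 15.67 and 15.66 in the normals and 15.88, 16.73, 15.93 and 15.82 in the tumors. Tumor 2 stood apart from all other samples, tumor 4 lay just below normal 1, and the difference of 0.37 ± 0.22 did not pass (adjusted p = 0.235). The ER-resident Dnajb9 and Dnajb11, co-chaperones of BiP, differed by 0.21 ± 0.13 (adjusted p = 0.250) and 0.25 ± 0.14 (adjusted p = 0.207). Dnajb3 had the largest difference of the type, 1.08 ± 0.63 (adjusted p = 0.231). Dnajb13, Dnajb7 and Dnajb8 were below the limit on too many arrays to be tested. The median difference of the tested type B genes was 0.28.

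Type C proteins share only the J domain and are diverse in function. Of 21 genes, 2 rose, 2 fell and 17 did not pass, while 7.0% of all genes rose and 7.54% fell. The median difference was 0.08, beside 0.15 over all genes. Dnajc6, which encodes auxilin, an uncoating factor of clathrin vesicles, had the largest difference of all members. It read 7.55, 8.32, 10.87 and 8.29 in the normals and 11.43, 11.90, 11.29 and 11.21 in the tumors. Normal 3 was close to the tumors and far from the other normals. The difference was 2.70 ± 0.67, 6.5-fold (limma adjusted p = 0.0374). In the column of normal 1, 95% of the probes flagged as not well above background read under 7.70. The level of Dnajc6 there was lower than that, so the size of the fold is uncertain. Without normal 3 the difference was 3.41 (limma adjusted p = 0.000488), and with the block Dnajc6 was not called (0.0624). Dnajc18 read 10.49, 10.40, 11.02 and 10.57 in the normals and 11.69, 11.79, 11.73 and 11.33 in the tumors. All tumors were higher, by 1.01 ± 0.18 or 2.02-fold (limma adjusted p = 0.0199), 1.15 without normal 3 (0.0036) and called with the block (0.0448).

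Dnajc5 encodes the cysteine string protein of secretory vesicles. It fell from 14.92, 14.89, 14.77 and 14.83 in the normals to 14.24, 14.38, 14.19 and 14.33 in the tumors. All tumors were lower and both groups were tight. The difference of -0.57 ± 0.11, 0.675 times the normal level, passed (limma adjusted p = 0.0232), was -0.60 without normal 3 (0.0106) and was not called with the block (0.0557). Dnajc13, an endosomal protein also called RME-8, fell from 12.19, 12.74, 11.79 and 12.76 to 11.16, 11.32, 11.27 and 11.55. Normal 3 was the normal nearest to the tumors. The difference was -1.04 ± 0.24, 0.486 times the normal level (limma adjusted p = 0.0324), -1.23 without normal 3 (0.0051) and called with the block (0.0474). Dnajc3, the ER co-chaperone P58IPK, differed by 0.11 ± 0.16 (adjusted p = 0.603). Over all the alternatives run, the adjusted p of the 12 called genes ranged from 0.000488 to 0.99998, the upper end coming from the scanner files taken under their filed labels.

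Separation of the groups was more frequent than calls. In 16 members every tumor was above every normal and in 3 every tumor was below, while each pattern occurred in 11.9% of all genes. Besides the called genes these were Hspa8, Hspa9, Hsp90aa1, Dnajb2, Dnajc8 and Dnajc9 on the higher side and Dnajc14 on the lower. Dnajc9, a histone chaperone with a J domain, differed by 0.43 ± 0.12 (adjusted p = 0.0545). Dnajc14 differed by -0.43 ± 0.13 (adjusted p = 0.0587) and was the third gene called lower after centring.

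Tumor 2 had the highest value of the 4 tumors in 31 of the 59 members (52.5%), beside 27.7% of all genes tested. It was the highest in all 10 genes that rose, and the corresponding share among all genes that rose was not computed. By class it led in 6 of 9 HSP70 genes, 2 of 2 HSP110, 3 of 3 HSP90, 2 of 2 chaperonin and 3 of 4 type A DnaJ genes, but in 1 of 7 small HSPs, 5 of 10 type B and 8 of 21 type C genes. Without tumor 2, 2 of the members rose, and the calls over all genes fell to 1.75%. The column of tumor 2 matched a scanner file labelled normal 4, and its place among the tumors is taken from the column label. Over the tested genes this column correlated at 0.979 to 0.987 with the other tumors and at 0.902 to 0.947 with the normals.

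Of the tested members 11 had a mean level under 10. In 7 of them (Hspa1l, Hspb7, Hspb9, Dnajb14, Dnajb5, Dnajc5b and Dnajc5g) normals 1 and 3 were both above normals 2 and 4. The same order was present in 13 of the 48 brighter members, Hspe1, Dnaja1 and Dnaja4 among them, in 41.7% of all genes and in 47.2% of all genes with a mean under 10. The median level of 621 olfactory receptor genes, a family best known from olfactory neurons, had the same order: 7.25, 5.72, 8.12 and 5.85 in normals 1 to 4 and 7.85, 7.41, 7.98 and 7.53 in tumors 1 to 4. Their median difference was 1.11. Of the 11 dim members 0 were called by limma in the full comparison (1 had an unadjusted p under 0.05). Without normal 3, 6 were called, Hspa12a lower and Hspa1l, Hspb7, Hspb9, Dnajb5 and Dnajc5g higher. Part of the increase from 12 to 24 calls without that library therefore lies in dim probes. Brighter genes called higher without normal 3 and not with it were Hspa12b, Dnajb6, Dnajc17 and Dnajc9. The brighter genes called lower without it and not with it were Dnajb4 and Dnajc14, the latter also called after centring.

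**Figure D4:**
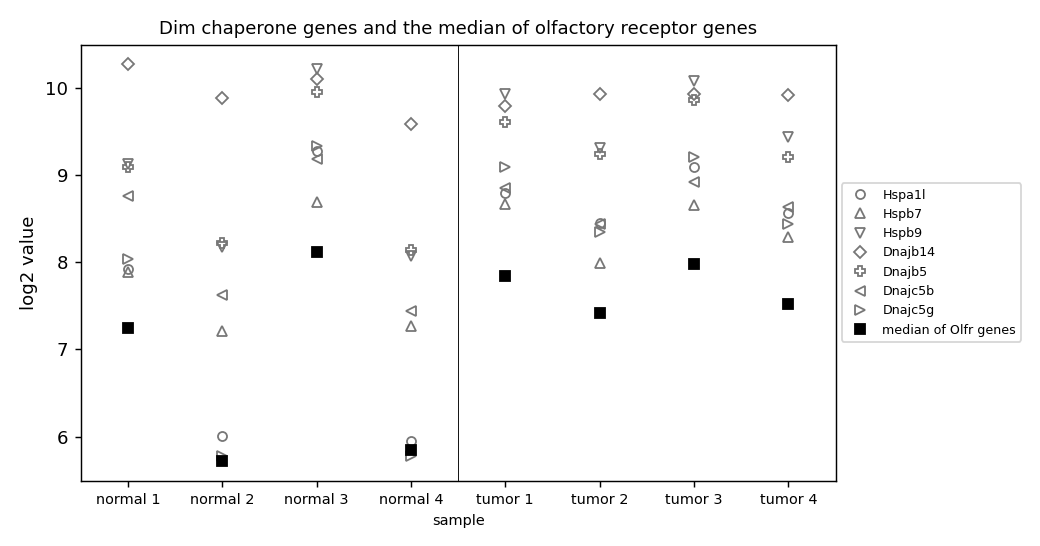
Log2 level (y axis) in each sample of the 7 dim chaperone genes with normals 1 and 3 above normals 2 and 4 (open symbols), and the median of 621 olfactory receptor genes (filled squares; 5.72 in normal 2 and 8.12 in normal 3). Among the normals, the symbols sit lowest in normals 2 and 4.

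Genes that act with the chaperones were taken as lists by their known function. Over all genes tested, 7.0% rose and 7.54% fell, 3.61% and 5.08% with the block, and 31.7% and 19.8% without normal 3. Of 29 tested co-chaperones of HSP90 and HSP70, 10 rose and 0 fell, 3 and 1 with the block, and 13 and 1 without normal 3. The mean level of the list was 12.99 to 13.09 in the normals and 13.28 to 13.54 in the tumors, without overlap. Ppid, a cyclophilin that binds HSP90, differed by 1.13 ± 0.18 (limma adjusted p = 0.0167). Stip1, the adaptor HOP between HSP70 and HSP90, differed by 1.08 ± 0.20 (adjusted p = 0.0204). Both remained called with the block. Chordc1, an HSP90-binding protein, differed by 0.97 ± 0.18 (adjusted p = 0.0213, with the block 0.0561), and Tomm34, a cytosolic adaptor for mitochondrial precursors, by 0.64 ± 0.14 (adjusted p = 0.0278, with the block 0.0638).

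TRiC, the cytosolic chaperonin for actin and tubulin, and its delivery factor prefoldin had 7 of 16 tested genes that rose and 0 that fell, 1 with the block and 9 without normal 3. The mean level was 13.90 to 14.17 in the normals and 14.34 to 14.65 in the tumors. Cct3 differed by 0.72 (limma adjusted p = 0.0225) and remained called with the block. Cct7 differed by 0.83 (adjusted p = 0.0248, with the block 0.0510), Cct6b by 0.83 (0.0285, with the block 0.0611) and Cct8 by 0.67 (0.0307, with the block 0.0561).

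Of 31 tested genes of ER protein folding and the unfolded protein response, 7 rose and 0 fell, 2 and 0 with the block, and 9 and 4 without normal 3. The counts without normal 3 were smaller shares than the 31.7% and 19.8% of all genes. The list mean was 13.06 to 13.20 in the normals and 13.25 to 13.45 in the tumors. Trib3, a pseudokinase target of ATF4 and CHOP, differed by 1.34 ± 0.19 (limma adjusted p = 0.0149) and remained called with the block. Pdia4, a disulfide isomerase, differed by 0.65 (adjusted p = 0.0208, with the block 0.0502), Sdf2l1, an ER chaperone partner, by 0.94 (0.0239, with the block 0.0529) and Manf by 0.73 (0.0387, with the block 0.0863).

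Of 16 tested genes of mitochondrial folding and proteolysis, 1 rose and 2 fell, 0 and 1 with the block, and 4 and 2 without normal 3. Here too the counts without normal 3 were smaller shares than those of all genes (31.7% and 19.8%). Afg3l2, a subunit of an inner membrane protease, differed by -0.72 ± 0.12 (limma adjusted p = 0.0181) and remained called with the block. Clpx, the unfoldase of the matrix protease CLPXP, differed by -0.69 (adjusted p = 0.0385, with the block 0.0740), and Grpel2, an exchange factor of mitochondrial HSP70, by 0.61 (0.0452, with the block 0.0590). Of 4 tested heat shock factor genes 0 rose and 1 fell, Hsf5, by -1.36 ± 0.33 (limma adjusted p = 0.0365). Hsf5 was dim, at 6.83 to 8.26 in the normals and 5.96 to 6.72 in the tumors, near the detection limit of 5.59. Hsf1 differed by 0.07 ± 0.45 (adjusted p = 0.910), with a sign that changed between settings (-0.06 after centring), and Hsf2 by -0.67 ± 0.61 (adjusted p = 0.409). Of the 3 other small HSP genes and crystallins 0 were called by limma and 0 had an unadjusted p under 0.05, and 2 rose without normal 3. Cryab differed by 0.39 ± 0.29 (adjusted p = 0.324).

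Markers of cell types moved between the same groups. Of 7 colonocyte markers 6 fell, with list means of 16.53 to 16.93 in the normals and 13.62 to 15.28 in the tumors. All 6 tested neutrophil markers rose (6.42 to 10.31 and 11.50 to 13.30), as did 5 of 7 macrophage markers (11.15 to 11.87 and 12.80 to 12.92). So did 4 of 8 proliferation markers (12.82 to 13.29 and 13.14 to 13.71) and 1 of 8 T and B cell markers (9.48 to 10.40 and 10.08 to 10.94). Of 10 markers of position along the gut 3 fell (11.60 to 12.84 and 10.88 to 11.94). That list mixes distal colon and small intestine genes, so its count and mean give no direction along the gut. No call was made by limma for 6 pan-epithelial (17.71 to 18.09 and 17.58 to 17.75), 8 fibroblast and pericyte (11.69 to 14.31 and 13.60 to 14.54), 6 goblet (16.72 to 17.48 and 16.41 to 17.46), 7 enteric neuron and glia (8.40 to 9.18 and 8.31 to 8.98) or 5 testis markers (6.37 to 8.73 and 8.10 to 8.75), of which 3, 2, 0, 0 and 1 respectively had an unadjusted p under 0.05. With the block the calls were 4 colonocyte, 5 neutrophil, 4 macrophage, 1 proliferation, 0 T and B cell and 2 position markers. The part of these shifts in the chaperone differences was not tested.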

How the data were processed

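Total RNA of 4 tumors and 4 normal colons was hybridised in 1 colour (Cy3) on Agilent arrays. The authors deposited a table of log2 values, used here as the main source; the columns share their median and 75th percentile, and no source used here names the normalization. Scanner files hold intensity values and detection flags made with Agilent Feature Extraction (9.5.1.1 per the file headers, 10.1.1.1 per the submitters' processing notes; design 014868, build mm8 per the file headers). They served to name probes, to set the detection limit and as alternatives, because 4 of 8 columns matched a scanner file and 3 of those a file of another label. For the limit of 5.59, the 95th percentile of probes flagged as not well above background was taken in each traced column, and then the median of these 4 values. They ran from 4.50 in tumor 1 to 7.70 in normal 1. On the arrays 55.6% to 82.8% of probes were well above background, and 8 arrays limit the precision.

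Probes were named through RefSeq accessions (24375), symbols (6301) or synonyms (2426), and 8072 kept the file's name. Of 41174 probes 31870 were kept. limma 3.58.1 in R 4.3.3 (lmFit, eBayes, 2-sided, Benjamini-Hochberg over 21637 genes) compared tumors with normals without covariates, and was tested on simulated data. The labels state no pairing. The deviations of same-numbered samples correlated at 0.238 to 0.534 over 4 pairs, but some differently numbered samples did so as strongly (tumor 4 with normal 2 at 0.379, tumor 2 with normal 4 at 0.351), and the own number gave the highest correlation for 2 of 4. The replicate block is therefore given beside the unpaired fit. Nothing but the words "independent tissue samples" describes the replicates. The members and all lists were chosen with earlier results of these data known. Named were the major chaperones whatever their result, up to 8 called genes of a class, the uncalled gene with the largest difference in each class, up to 4 called genes of each list, and Hsf1, Hsf2 and Cryab; Hspbap1, Hspa12a, Dnaja2 and the uncalled genes with separated groups or called without normal 3 were added after their values were seen. Alternatives changed the centring, the source and background correction, the filter, the probe rule, the variance model, the block, the slide and each replicate.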

Additional observations from a re-analysis of the deposited data

Results flagged for a closer look

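In groups of 4 a value is listed here when its gap to the nearest other value, as a share of the group's range, exceeds Dixon's critical value. Chance alone gives about 1 in 20 groups, and 13 were found over 158 groups of 79 genes, 6 of them in tumor 2. Among the HSP90 genes and their partners, tumor 2 was high for Hsp90aa1 (17.16, other tumors 16.52 to 16.62), Hsp90ab1 (17.60, others 17.05 to 17.13) and the inducible HSP40 gene Dnajb1 (16.73, others 15.82 to 15.93). It was also high for Dnajc2, a ribosome-associated J protein (12.63, others 11.97 to 12.07), and for the TRiC subunit Cct8 (15.87, others 15.44 to 15.49), and low for Dnajc4 (12.63, others 13.14 to 13.24).

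Tumor 1 was high for Dnajc12 (12.83, others 12.29 to 12.38) and low for Dnajb14 (9.79, others 9.91 to 9.93), and tumor 4 was high for Afg3l2 (12.43, others 12.27 to 12.28). Normal 3 was high for Dnaja4 (10.83, other normals 10.22 to 10.32) and Cct3 (13.13, others 12.78 to 12.83) and low for the ER disulfide reductase Dnajc10 (13.39, others 13.70 to 13.76). Normal 1 was low for Cct8 (14.67, others 14.96 to 14.98).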

How the results depend on the processing

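The main counts were 10 members higher, 2 lower and 28 list genes called. Both fits of the scanner files under their filed labels, and the 4 traced columns with the slide as a block, gave 0, 0 and 0. The first 2 left 432 (75th percentile) and 510 (normexp) of all genes at an unadjusted p under 0.05, 0 of them members, and the third left 7359, with 18 members. The replicate block gave 3, 1 and 9, and with normal 3 left out as well, an alternative chosen after seeing the data, 16 members were higher. Array weights by group gave 4 higher and 12 list genes, the mean of a gene's probes 5 higher, centring 15 list genes, and no filter on dim probes 18 list genes. Leaving out 1 replicate gave 0 to 19 higher, 0 to 5 lower and 0 to 45 list genes. Without a replicate there are fewer samples; other causes were not tested. The block changed no call of a named gene beyond those stated with the results.

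Signs turned mainly under the scanner files as filed, minus the 75th percentile and with normexp respectively: Hspa1a -1.14 and -1.11, Hspb1 -0.74 and -0.73, Dnaja4 -0.37 and -0.36, Dnajb1 -0.37 and -0.41, Hspb8 -0.29 and -0.28, Cryab -0.32 and -0.31, Grpel2 -0.21 and -0.18, Hspa4l -0.20 and -0.22, Hsp90aa1 -0.079 and -0.13, Hsph1 -0.067 and -0.050, Chordc1 -0.054 and -0.039, Dnajc6 -0.053 and -0.16, Pdia4 -0.048 and -0.015, Cct3 -0.037 and -0.0065, Stip1 -0.027 and -0.0038, Hsp90ab1 -0.015 and -0.051, Cct8 -0.012 and -0.029, and Hspa9 -0.0033 and -0.033. With normexp alone Hspa8 was -0.091 and Dnajb11 -0.011. Dnajc3 was -0.075 in the traced columns and -0.022 after centring, and Cryab -0.074 as the mean of its probes. Hsf1 was -0.13 in the traced columns, -0.062 after centring, -0.13 and -0.054 without normal 2 and normal 4, -0.037 without tumor 4, and from -0.15 (without tumor 3) to 0.40 (without normal 3) over the left-out replicates. The samples that the filed labels and the columns stand for could not be reconciled, and dim probes have only a bound.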

Other observations

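Of 37 chaperone genes with more than 1 probe above the limit, 9 had called and uncalled probes together and 0 had probes called in opposite directions. The 9 were Hspa12a, Hspa4, Dnajc19, Hspa2, Hspb1, Dnaja1, Dnaja4, Dnajc18 and Dnajc5. The second probe of Hspa2 differed by 0.24 (limma adjusted p = 0.397 over all probes), and 1 of Dnajc5 by -0.02 (0.938). For Hspd1 and Hsp90ab1 the lowest adjusted p of a probe in that fit was 0.0520 and 0.0527. The HSP110 gene Hspa4 had 1 probe called higher, at chr11:53103268-53103327 (mm8), which read 12.65, 12.59, 13.03 and 12.72 in the normals and 13.53, 14.08, 13.65 and 13.88 in the tumors, a difference of 1.04 ± 0.18 (limma adjusted p = 0.0183 over all probes). Its brightest probe differed by 0.31 and another by -0.05, neither of them called.

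Dnajc19, whose protein belongs to the mitochondrial import motor, had 2 probes called lower, at chr3:34248203-34248262 (-1.77 ± 0.46) and chr3:34248873-34248932 (-0.91 ± 0.19), while its brightest probe at chr3:34270339-34270757 differed by 0.17 ± 0.17. The HSP70 gene Hspa12a had 1 probe called lower, at chr19:58850818-58850877, by -1.50 ± 0.35 (limma adjusted p = 0.0329 over all probes), beside -0.95 for its brightest probe. The files name these probes alike, and which transcripts they read was not analysed here.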
